A study of Mus musculus with 11 samples.

Results

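The Id inhibitors and the E proteins are represented by 7 genes, Id1, Id2, Id3, Id4, Tcf3, Tcf4 and Tcf12, of 19938 genes measured on 11 Affymetrix mouse gene arrays. They were taken by name, all 7 were measured, and each was read by a single probe set that carried its symbol alone. The arrays hold classical dendritic cells (cDCs) sorted by flow cytometry from the spleens of C57BL/6 mice. All mice carried floxed Zeb2 on both alleles, written Zeb2(fl/fl). The groups were CD24+ cDCs of Zeb2(fl/fl) mice without Cre (3 arrays), CD172a+ cDCs of Zeb2(fl/fl) mice without Cre (4 arrays), and CD172a+ cDCs of Zeb2(fl/fl);CD11c-Cre(tg) mice (4 arrays). The first and second of these are called control, and the last is called labelled Zeb2-deficient. CD11c-Cre acts in cells that express CD11c, and only the labelled Zeb2-deficient mice carried it, so loss of Zeb2 and any effect of the transgene itself cannot be told apart. Age, sex and whether animals were pooled are not given in the sources used here. No label ties the arrays of a group to different mice, and the p-values therefore cover only the spread between these arrays, which may be technical.

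E proteins are basic helix-loop-helix transcription factors that bind E-box sequences as dimers. Id proteins have the helix-loop-helix that forms dimers but no basic region, so an Id protein that pairs with an E protein keeps it from DNA. Tcf4, also known as E2-2, is the E protein required for plasmacytoid dendritic cells (pDCs), while Id2 restrains it and is needed for the CD24+ cDC lineage, also called cDC1. Zeb2 is a zinc-finger repressor that also binds E-box-like sequences, and the study asked how it acts on the commitment to the pDC and monocyte fates.

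Expression is given as log2 of the RMA value, so a difference of 1 is a 2-fold change. RMA is the authors' normalization, which brings all arrays to a common distribution and shrinks differences near background. Zeb2 itself read 8.33 ± 0.19 (SD, n = 4) in control CD172a+ cDCs and 8.79 ± 0.44 (SD, n = 4) in labelled Zeb2-deficient cells (difference 0.45, SE 0.201, adjusted p = 0.998 in limma). The targeted gene was thus not lower in the labelled arrays, and since the sources used here do not place its probes inside or outside the deleted exon, the value checks the labels only weakly. Control CD24+ cDCs read 5.26 ± 0.23 (SD, n = 3). The arrays fell into 2 sets along the second principal component, which held 34.2% of the variance. The first set holds 1 CD24+, 2 control CD172a+ and 2 labelled Zeb2-deficient arrays, and the second holds 2 of each. Differences from CD24+ cDCs within the first set thus rest on 1 CD24+ array, and only their size is given. These sets were found from the values, no label names a batch, and within-set values are given for Id2, Tcf4, Tcf12 and Tcf3 and for other genes where they bear on a call or a size. Because the sets come from the same values, blocking on them removes variation they were chosen to follow. Calls made with that block or within a set can therefore pass too easily and only describe these arrays. The labels of the control subsets matched most of their markers. In CD24+ against control CD172a+ cDCs 8 of 9 cDC1 markers were higher and 7 of 9 cDC2 markers lower (and 1, Clec12a, higher), beside 6.41% of all genes passed. The cDC2 markers include Sirpa, the gene of CD172a, by which the cells were sorted, so its difference was fixed by the sort. These counts do not check the labelled Zeb2-deficient arrays.

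Promoters of 5 of the 7 genes, all but Id1 and Tcf4, which had no promoter entry and were not searched, were read in 7 windows from RefSeq (GRCm38.p6). Those of Id2, Id3 and Id4 are shown because Id2 is the Id gene whose level varied with cell type, while Id3 and Id4 are its paralogs at low level. Each line holds the 250 bases upstream of the annotated start, 5′ to 3′ on the gene's strand, with matches to the E-box CANNTG in capitals. Id2 lies on the minus strand at chr12:25096093-25096342, Id3 on the plus strand at chr4:136143572-136143821 and Id4 on the plus strand at chr13:48260866-48261115.
Id2: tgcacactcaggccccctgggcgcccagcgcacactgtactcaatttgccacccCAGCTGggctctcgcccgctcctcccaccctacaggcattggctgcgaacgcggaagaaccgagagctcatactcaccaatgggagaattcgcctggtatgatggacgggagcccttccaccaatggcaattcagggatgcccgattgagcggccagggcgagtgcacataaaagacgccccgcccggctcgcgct
Id3: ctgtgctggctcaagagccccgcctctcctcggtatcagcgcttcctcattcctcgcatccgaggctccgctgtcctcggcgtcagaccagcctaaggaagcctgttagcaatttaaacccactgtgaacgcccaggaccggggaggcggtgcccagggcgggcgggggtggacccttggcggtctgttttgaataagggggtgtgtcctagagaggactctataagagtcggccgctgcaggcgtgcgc
Id4: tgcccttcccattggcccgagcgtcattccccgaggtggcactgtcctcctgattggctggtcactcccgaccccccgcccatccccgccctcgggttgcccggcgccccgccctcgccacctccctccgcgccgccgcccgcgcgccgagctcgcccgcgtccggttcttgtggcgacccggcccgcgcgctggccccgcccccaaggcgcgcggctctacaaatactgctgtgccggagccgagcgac
The Id2 window holds 1 E-box, CAGCTG, which starts 196 bases upstream of the start, and the Id3 and Id4 windows hold 0. The Tcf3 window holds CACTTG, 54 bases upstream. Separate Tcf12 windows hold CAGCTG, 240 bases upstream, and CAAGTG, 149 bases upstream, and the last Tcf12 window holds 0. An E-box was thus not particular to Id2 among these genes. CANNTG reads the same on both strands, and 66.2% of 32851 RefSeq windows of this length hold at least 1. CACCTG or its reverse complement CAGGTG, the E-box form usually given for Zeb proteins, was found in 0 of the 7 windows and in 17.2% of all windows. Its shorter core, CACCT or AGGTG, which the longer form contains, was in 46% of all windows. That core was in 0 places of the Id2 and Id3 windows and in 2 of the Id4 window, in 2 of the Tcf3 window, and in 1 of the 3 Tcf12 windows. A match or its absence describes only these letters in this window.

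Id2, the main Id gene of dendritic cells, was highest in CD24+ cDCs. The 3 CD24+ arrays read 10.96, 11.17 and 11.23, averaging 11.12 ± 0.14 (SD, n = 3). The 4 control CD172a+ arrays read 9.76, 9.75, 10.38 and 10.52, averaging 10.10 ± 0.41 (SD, n = 4). Every CD24+ array lay above every control CD172a+ array, and the spread of the latter followed the array sets, with means of 9.75 in the first and 10.45 in the second. Id2 was 2.03-fold higher in CD24+ cDCs, a log2 difference of 1.02 (SE 0.199, 95% interval 0.58 to 1.46, adjusted p = 0.00971 in limma). The difference was 1.21 within the first set and 0.75 within the second, and passed in each (adjusted p = 0.00648 and 0.0139), where 7.63% and 8.79% of all genes passed. The call was lost when quantile normalization was repeated on the gene table (difference 0.92, adjusted p = 0.0671).

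In labelled Zeb2-deficient CD172a+ cDCs, Id2 read 10.48, 10.55, 10.73 and 10.91, averaging 10.67 ± 0.19 (SD, n = 4). These arrays lay between the other groups, below all CD24+ arrays, and overlapped with control CD172a+ arrays only in that the lowest, 10.48, was under the highest control, 10.52. Against control CD172a+ the log2 difference was 0.56 (SE 0.184, 95% interval 0.16 to 0.97), which did not pass (adjusted p = 0.998 in limma, unadjusted p = 0.0108). Id2 ranked 180 of 19938 genes by p in this comparison, in which 773 genes (3.88%) had an unadjusted p below 0.05 and 10 passed. Blocking on array set gave an adjusted p of 0.0742 (29 genes, 0.145%, passed), with the same difference. Blocking on replicate number, although no label pairs the arrays, gave 0.16 (26 genes, 0.13%, passed), again with that difference. Within each array set both labelled Zeb2-deficient arrays lay above both control arrays, which was the case in 1 direction in both sets for 8.7% of all genes. It was 0.76 higher in set 1 and 0.37 higher in set 2, and the change of size did not pass (interaction -0.39, SE 0.167, adjusted p = 0.702), as for all but 0.00502% of genes. Against CD24+ cDCs, Id2 in labelled Zeb2-deficient cells fell by 0.46 on the log2 scale without passing (SE 0.199, adjusted p = 0.252). It was -0.45 within set 1, with its 1 CD24+ array, and -0.38 within set 2, where it did not pass (adjusted p = 0.112 in limma). Blocking on array set, which was found from these values, made the difference over all arrays pass (-0.38, adjusted p = 0.0325 in limma). With that block 18.3% of all genes passed, beside 7.17% without it. In the order CD24+, labelled Zeb2-deficient CD172a+, control CD172a+, the differences between neighbours did not pass and that between the ends did.

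**Figure D1:**
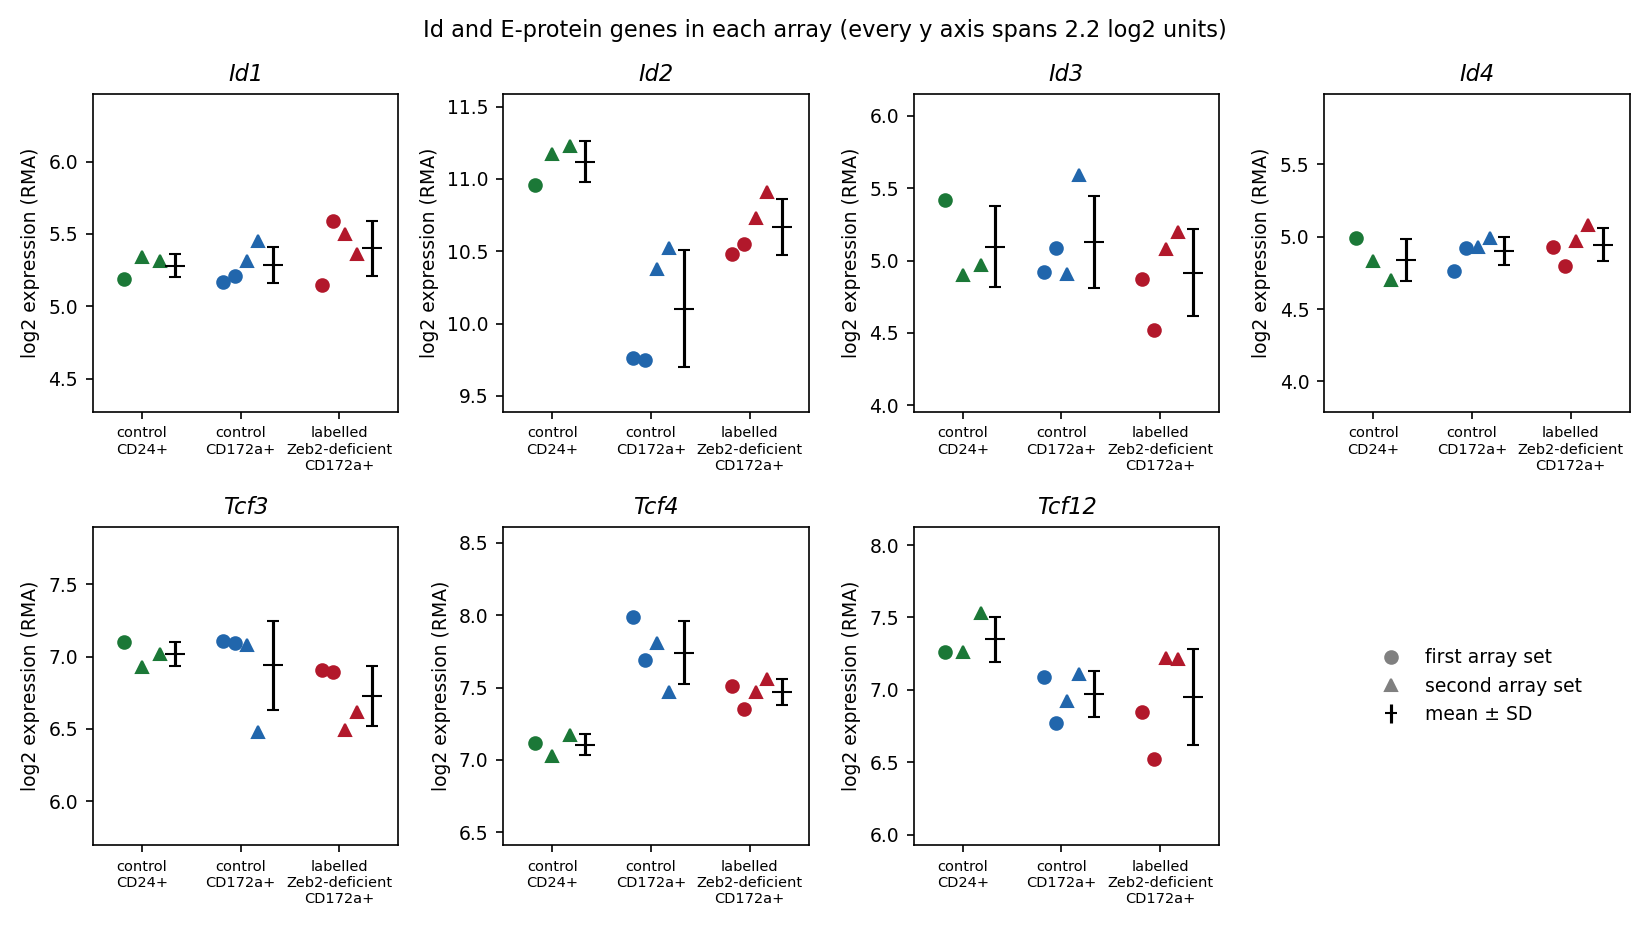
Log2 RMA expression of each gene (y axis, every panel spanning 2.2 units) in each array by group, with circles for the first array set, triangles for the second and a bar for the mean ± SD over 3, 4 and 4 arrays. Id2 runs from 9.75 in a control CD172a+ array to 11.23 in a CD24+ array, Tcf4 runs the other way from 7.99 to 7.03, and the Id1, Id3 and Id4 groups overlap.

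Tcf4, the E protein that drives pDCs, had the opposite order. The CD24+ arrays read 7.12, 7.03 and 7.17, averaging 7.11 ± 0.07 (SD, n = 3). The control CD172a+ arrays read 7.99, 7.69, 7.81 and 7.47, averaging 7.74 ± 0.22 (SD, n = 4). The groups did not overlap, and replicate 4 was the lowest of the control CD172a+ arrays. Tcf4 was 1.55-fold lower in CD24+ cDCs, a log2 difference of -0.63 (SE 0.119, 95% interval -0.90 to -0.37, adjusted p = 0.00804 in limma). Within the first set, with its 1 CD24+ array, it was -0.72. Within the second it was -0.54 and did not pass alone (adjusted p = 0.0783 in limma).

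In labelled Zeb2-deficient CD172a+ cDCs, Tcf4 read 7.51, 7.35, 7.47 and 7.56, averaging 7.48 ± 0.09 (SD, n = 4). All lay above the CD24+ arrays, and they overlapped with the lowest control CD172a+ array. The difference from control CD172a+ was -0.27 (SE 0.110, 95% interval -0.51 to -0.02), which did not pass (adjusted p = 0.998 in limma, unadjusted p = 0.035). In set 1 it was -0.41, and in set 2, where the groups overlapped, -0.12. Blocking on array set gave an adjusted p of 0.496. Against CD24+ cDCs the labelled Zeb2-deficient arrays were 0.37 above on the log2 scale (SE 0.119, adjusted p = 0.107), with 0.31 in set 1 and 0.42 in set 2. The difference over all arrays passed when quantile normalization was repeated (0.45, adjusted p = 0.0362) or arrays were weighted (0.37, adjusted p = 0.0432). Of 19938 genes, 1402 and 2110 passed with these settings, beside 1429 without them.

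**Figure D2:**
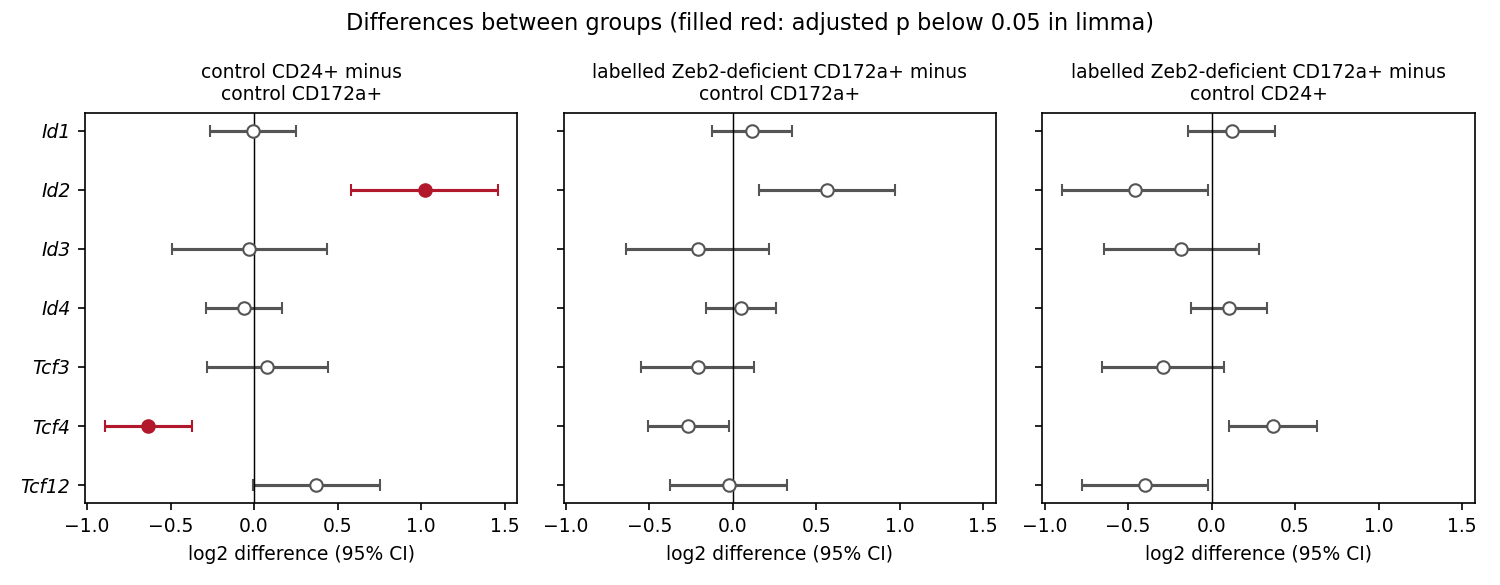
Log2 difference of each gene (x axis, with its 95% interval from limma) in the 3 comparisons, filled in red where the adjusted p is below 0.05. Id2 (1.02) and Tcf4 (-0.63) are filled in the comparison of CD24+ with control CD172a+ cDCs, and no gene is filled in the others.

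Since each array measures both genes, Id2 can be set against Tcf4 within an array, although the value depends on the probe sets and is no ratio of RNA molecules. Log2 Id2 minus log2 Tcf4 was 3.84, 4.14 and 4.06 in CD24+ arrays. It was 1.77, 2.06, 2.57 and 3.04 in control CD172a+ arrays and 2.97, 3.19, 3.25 and 3.35 in labelled Zeb2-deficient CD172a+ arrays. The CD24+ arrays were above all others, and a single control array, replicate 4 at 3.04, was above the lowest labelled Zeb2-deficient array. The group means were 4.01 ± 0.16 (SD, n = 3), 2.36 ± 0.56 (SD, n = 4) and 3.19 ± 0.16 (SD, n = 4). In the first array set the control and labelled Zeb2-deficient CD172a+ means were 1.91 and 3.08, and in the second 2.81 and 3.30. The gap between these groups was thus smaller in the second set, where the control arrays were higher. No test was made of this value, because both genes were known to differ when it was chosen.

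**Figure D3:**
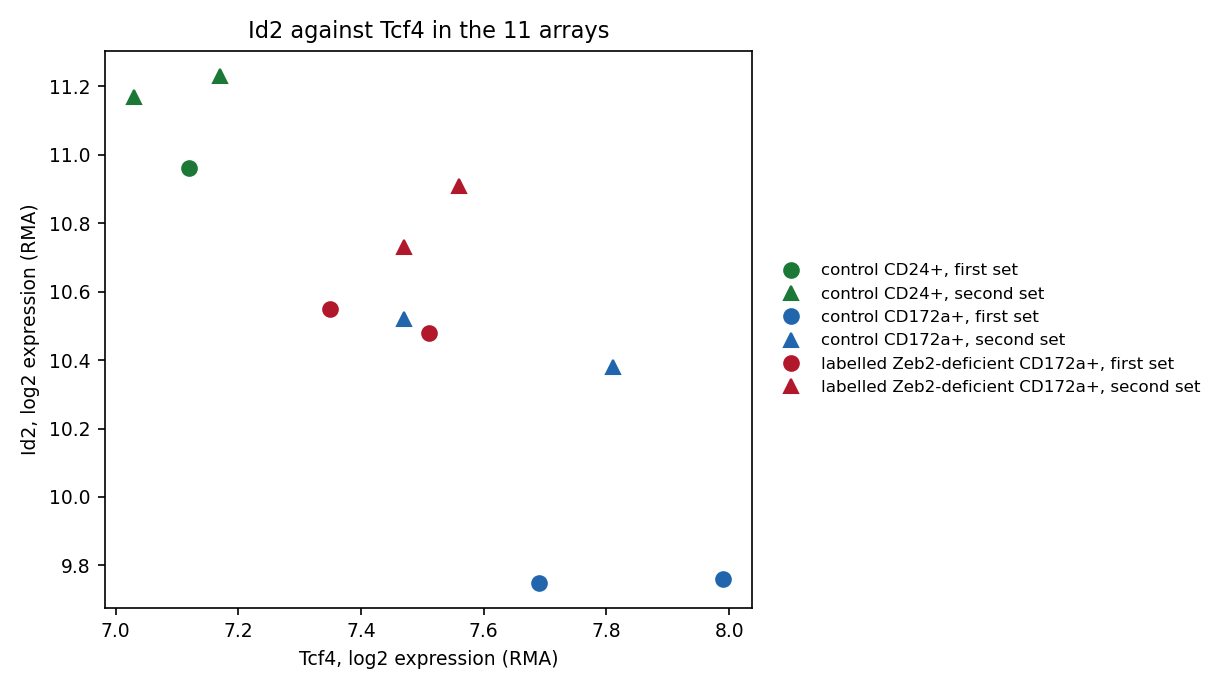
Log2 expression of Id2 (y axis) against Tcf4 (x axis) in the 11 arrays, coloured by group, with circles for the first array set and triangles for the second. The 3 CD24+ arrays lie at the upper left (Id2 at least 10.96, Tcf4 at most 7.17), the control CD172a+ arrays of the first set at the lower right, and the labelled Zeb2-deficient arrays between them near control replicate 4.

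Tcf12, which encodes the E protein HEB, was read at 7.26, 7.26 and 7.53 in CD24+ arrays, averaging 7.35 ± 0.16 (SD, n = 3). Control CD172a+ arrays read 7.09, 6.77, 6.92 and 7.11, averaging 6.97 ± 0.16 (SD, n = 4), all below the CD24+ arrays. The difference of 0.37 (SE 0.172, 95% interval -0.01 to 0.75) did not pass (adjusted p = 0.327 in limma), and it was 0.32 and 0.38 within the sets. Labelled Zeb2-deficient arrays read 6.85, 6.52, 7.22 and 7.21, averaging 6.95 ± 0.33 (SD, n = 4). The lower pair belongs to the first set and the higher to the second. Their mean differed from control CD172a+ by -0.03 (SE 0.159, 95% interval -0.38 to 0.33), with -0.25 in set 1 and 0.20 in set 2, and the sign also turned when quantile normalization was repeated (0.02). The change between sets did not pass as an interaction (0.45, SE 0.230, adjusted p = 0.737). Against CD24+ cDCs the labelled Zeb2-deficient cells differed by -0.40 (SE 0.172, adjusted p = 0.249), with -0.57 in set 1 and -0.18 in set 2.

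Tcf3 encodes the splice products E12 and E47, the E proteins best known from B and T cell development. CD24+ arrays read 7.10, 6.93 and 7.02, averaging 7.02 ± 0.08 (SD, n = 3). Control CD172a+ arrays read 7.11, 7.09, 7.08 and 6.48, averaging 6.94 ± 0.30 (SD, n = 4), so that replicate 4 stood apart from the others. Labelled Zeb2-deficient arrays read 6.91, 6.89, 6.49 and 6.62, averaging 6.73 ± 0.21 (SD, n = 4), below all CD24+ arrays. Against control CD172a+ the difference was -0.21 (SE 0.153, 95% interval -0.55 to 0.13, adjusted p = 0.998 in limma), and it was -0.36 without control replicate 4 (adjusted p = 0.941). Within the sets it was -0.19 and -0.22. CD24+ and control CD172a+ cDCs differed by 0.08 (SE 0.165, adjusted p = 0.918), a sign that turned without control replicate 4 (-0.07), and the within-set values were 0.006 and 0.20. Against CD24+ cDCs labelled Zeb2-deficient cells differed by -0.29 (SE 0.165, adjusted p = 0.419), with -0.20 and -0.42 within the sets.

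Id1, Id3 and Id4, the other Id inhibitors and well-known targets of BMP signalling, were read below the median gene of each group (5.52 in control CD172a+ cDCs). Differences so near background are shrunk by RMA, and these 3 genes did not pass the filter on low values that was tried, which Id2, Tcf3, Tcf4 and Tcf12 passed. Id1 ranged from 5.15 to 5.59 over all arrays, and both extremes were labelled Zeb2-deficient arrays. Id4 ranged from 4.70 to 5.08, the narrowest range of the 7 genes at 0.38. Id3 ranged from 4.52 in a labelled Zeb2-deficient array of the first set to 5.59 in control CD172a+ replicate 4. The groups overlapped for all 3 genes in each comparison.

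The differences of these low genes had intervals that included 0, and near background such intervals do not bound the change in RNA. CD24+ minus control CD172a+ gave 95% intervals of -0.26 to 0.25 for Id1, -0.49 to 0.43 for Id3 and -0.29 to 0.17 for Id4. Labelled Zeb2-deficient minus control CD172a+ gave -0.13 to 0.35, -0.64 to 0.22 and -0.16 to 0.26. The signs of the Id1 and Id3 differences between the control subsets (-0.006 and -0.03) turned when quantile normalization was repeated or arrays were median-centred, and for Id3 they also differed between the sets (0.42 and -0.32). For Id3, labelled Zeb2-deficient minus CD24+ came to -0.73 in set 1 and 0.20 in set 2, with an interaction of 0.93 (SE 0.321) that did not pass (adjusted p = 0.32), as 0.587% of all genes did.

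Counted together, 1 of the 7 genes was higher (Id2), 1 lower (Tcf4) and 5 did not pass in CD24+ against control CD172a+ cDCs, where 6.41% of all genes passed, 3.25% higher and 3.16% lower. The groups did not overlap for 3 of the 7, Id2, Tcf4 and Tcf12, against 14.6% of all genes. The median difference of the 7 was -0.01, beside -0.02 over all genes. In labelled Zeb2-deficient against control CD172a+ cDCs 0 of the 7 passed in limma, 2 had an unadjusted p below 0.05 (Id2 and Tcf4), and 0.0502% of all genes passed (3.88% at the unadjusted level). The groups did not overlap for 0 of the 7, against 2.1% of all genes. The median difference was -0.03, beside 0.006 over all genes. In labelled Zeb2-deficient CD172a+ against CD24+ cDCs 0 of the 7 passed in limma, 3 had an unadjusted p below 0.05 (Id2, Tcf4 and Tcf12), and 7.17% of all genes passed (18% at the unadjusted level). The groups did not overlap for 4 of the 7, Id2, Tcf3, Tcf4 and Tcf12, against 17.9% of all genes, with a median of -0.18 beside 0.04. The comparisons share arrays and are not independent of each other.

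The factors that compete with E proteins for E-boxes or act with them were described from lists. Of 19 E-box repressors and competitors, 0 were higher and 2 lower in CD24+ than in control CD172a+ cDCs (10.5%, median -0.09), beside 6.41% of all genes passed and 3.16% lower. These were Zeb2, lower by a log2 difference of -3.07 (SE 0.217, adjusted p = 6.42e-06), and Bhlhe40, a basic helix-loop-helix repressor (-2.31, SE 0.382, adjusted p = 0.00337). Zeb1, the paralog of Zeb2, differed by -0.02 in this comparison and by 0.02 in labelled Zeb2-deficient cells. Of 20 partners and cofactors, 2 were higher and 0 lower (10%, median -0.06, beside 6.41% of all genes), namely Kat2b, a histone acetyltransferase (0.65, adjusted p = 0.0273), and Lmo1, a LIM-domain bridge between such factors (0.56, adjusted p = 0.04), which was read below the median gene of each group. Cbfa2t3, a corepressor that binds E proteins, differed by -0.06. Of 38 tissue-restricted partners measured, such as the muscle and nerve factors, 0 passed in this comparison (median -0.02). In labelled Zeb2-deficient against control CD172a+ cDCs 0 members of these 3 lists passed in limma, as 0.0502% of all genes did.

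BMP and TGF-beta signals, known to induce Id genes through SMAD proteins, were represented by 26 genes. In CD24+ against control CD172a+ cDCs 2 were higher, 2 lower and 22 did not pass (15.4%, median -0.07), beside 6.41% of all genes passed. The higher ones were the receptor genes Acvrl1 (1.08, SE 0.106, adjusted p = 8.81e-05) and Acvr1 (0.49, SE 0.112, adjusted p = 0.0245). Acvr1 was read below the median gene in control CD172a+ cDCs (5.44). The lower ones were the ligand gene Bmp2 (-3.21, SE 0.275, adjusted p = 3.04e-05), read below the median gene in CD24+ cDCs, and Smad4, the SMAD shared by both pathways (-0.60, SE 0.134, adjusted p = 0.0206). In labelled Zeb2-deficient cells 0 of the 26 passed in limma (median -0.05), beside 0.0502% of all genes.

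**Figure D4:**
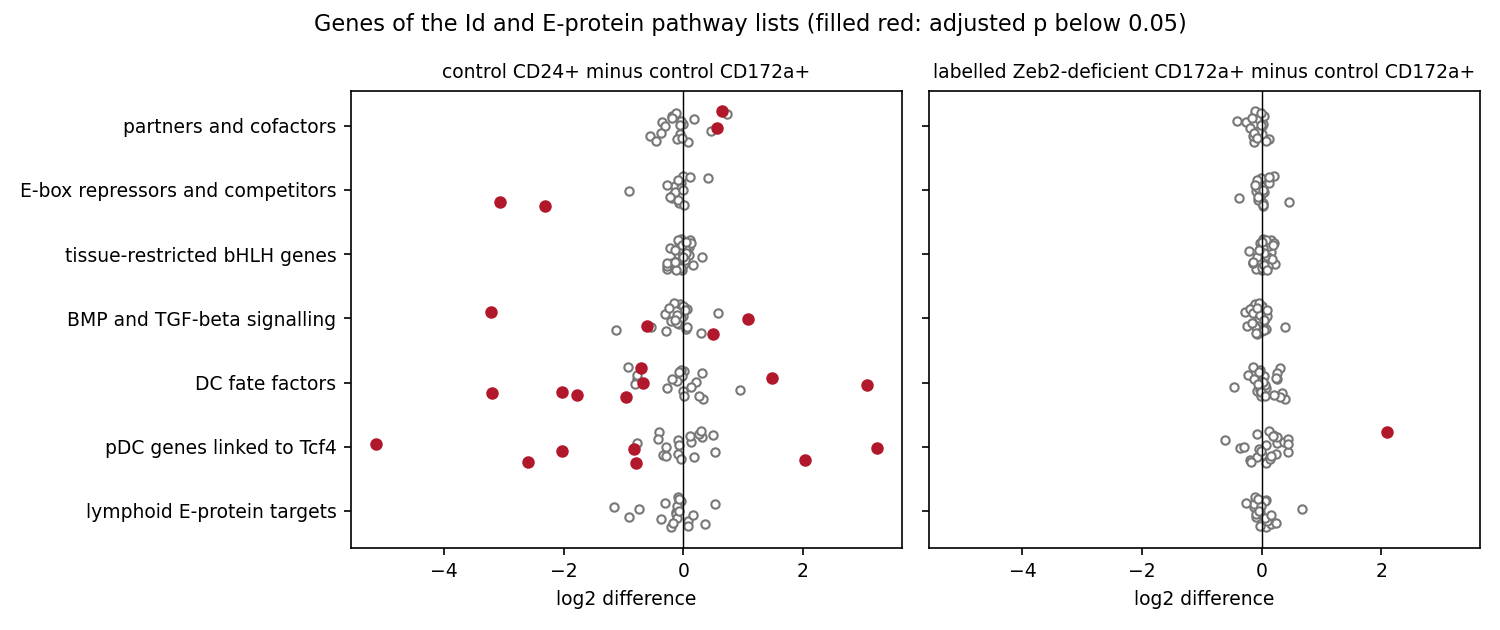
Log2 difference (x axis) of every measured gene of the 7 pathway lists (rows, points spread vertically only to separate them), for CD24+ minus control CD172a+ (left) and labelled Zeb2-deficient minus control CD172a+ cDCs (right), filled in red where the adjusted p is below 0.05. On the right only Cox6a2 (2.09), of the pDC genes linked to Tcf4, is filled.

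Of 27 measured factors that set dendritic cell fate beside Id2 and Tcf4, 2 were higher in CD24+ than in control CD172a+ cDCs, 6 were lower and 19 did not pass (29.6%, median -0.07), beside 6.41% of all genes passed. Irf8, required for cDC1, was higher in CD24+ cDCs (3.07, SE 0.450, adjusted p = 0.00146), by 4.85 in set 1 and 1.92 in set 2, as was Myb (1.49, with 0.80 and 1.81). Irf4 (-3.21, with -4.44 in set 1 and -2.38 in set 2), Prdm1 (-1.77), Klf4 (-0.95) and Ikzf3 (-0.72) were lower, and so was Spib, a factor of pDCs and B cells (-2.04, with -2.98 and -1.25). Prdm1 in CD24+ cDCs, and Ikzf3 in both control subsets, were read below the median gene. Nfil3, a factor placed upstream of Zeb2 and Id2 in cDC1 development, differed by -0.04 (adjusted p = 0.985), Batf3 by 0.33 (adjusted p = 0.542) and Bcl11a by -0.77 (adjusted p = 0.453). Blocking on array set made Bcl11a (-0.59, adjusted p = 0.00183) and Batf3 (0.41, adjusted p = 0.0471) pass, and left Nfil3 at -0.24 (adjusted p = 0.359). With that block 3080 of 19938 genes passed, beside 1278 without it. In labelled Zeb2-deficient cells 0 of the 27 passed in limma, with differences of -0.03 for Nfil3, 0.39 for Batf3, 0.05 for Irf8, 0.35 for Irf4, -0.02 for Spib and 0.27 for Bcl11a.

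Of 25 measured pDC genes linked to Tcf4, 2 were higher and 5 lower in CD24+ than in control CD172a+ cDCs (28%, median -0.10), beside 6.41% of all genes passed. The lower ones included Tlr7 (-5.14) and Lair1 (-2.60), which CD172a+ cDCs are also known to express, and Atp1b1 (-0.80). Tlr7 read 3.21 in CD24+ cDCs and Atp1b1 4.59 to 5.46 over the group means, both below the median gene there, so their differences are against or between levels near background. The higher ones were Cadm1 (3.23), also an adhesion molecule of cDC1, and the chemokine receptor gene Ccr9 (2.03). In labelled Zeb2-deficient against control CD172a+ cDCs 1 was higher, Cox6a2 (2.09, SE 0.147, adjusted p = 0.000197), and 24 did not pass (4%, median 0.13), beside 0.0502% of all genes passed. Cox6a2 was 2.39 higher in set 1 and 1.80 in set 2, and neither passed alone (adjusted p = 0.102 and 0.0572). Of 21 measured E-protein targets of lymphoid cells 0 passed in either comparison in limma (medians -0.11 and -0.002).

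Some markers of other cells differed between the groups beside these genes. Fewer cells of a type and less RNA per cell cannot be told apart in such sorted bulk samples. The mean log2 level of 7 pDC markers was 6.68 to 6.81 in labelled Zeb2-deficient arrays, 6.03 to 6.45 in control CD172a+ and 6.62 to 6.67 in CD24+ arrays, with 1 of the 7, Cox6a2, higher in labelled Zeb2-deficient than in control CD172a+ cells. Against control CD172a+, 5 of the 7 were above 0 (median difference 0.37), with 2.09 for Cox6a2, and the others, Ccr9 among them (-0.20), were below. The mean of 9 B cell markers was 5.53 to 5.83, 5.02 to 5.33 and 4.89 to 5.10 in the same order, with 1 of 9, Fcer2a, higher in labelled Zeb2-deficient cells. Only 5 of the 9 were above control CD172a+ there, with a median difference of 0.066, so the mean does not stand for the markers as a set. The mean of 10 markers of NK cells and innate lymphoid cells, which are known for high Id2, was 4.22 to 4.63, 4.16 to 4.44 and 4.14 to 4.21, and 8 of the 10 were read below the median gene of each group. That of 9 monocyte markers was 7.51 to 7.81, 8.15 to 8.34 and 7.30 to 7.39, with 1 of 9, Lyz2, lower in labelled Zeb2-deficient than in control CD172a+ cells. Beside these counts of 1, 0.0502% of all genes passed in labelled Zeb2-deficient against control CD172a+ cells. Macrophage markers ran from 5.09 to 6.56 in control CD172a+ arrays. Of these 12 markers 11 were higher in the second array set, beside 30.1% of all genes that differed between the sets in either direction. The part of these cells in the Id2 and Tcf4 values was not tested.

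The array sets touched the 7 genes unevenly. With groups accounted for, Id2 was higher in the second set by 0.44 (adjusted p = 0.00311 in limma), and the other 6 did not pass, with differences from -0.28 for Tcf3 to 0.26 for Tcf12. Over all genes 30.1% differed between the sets, a count that only describes sets found from these values. The difference of Id2 between subsets was thus measured across arrays that also differ by set, which is why the within-set values stand beside it.

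The genes whose profile over the 11 arrays was closest to that of Id2, by the root mean square difference of mean-centred log2 values, were Phxr4 (0.147), Zfp57 (0.183) and Arc (0.194), where Id2 itself varied by 0.474 about its mean. Phxr4 was higher in CD24+ than in control CD172a+ cDCs by 1.08 and in labelled Zeb2-deficient cells by 0.73 without passing (adjusted p = 0.0205 and 0.998 in limma), and blocking on array set or replicate number made the latter pass (adjusted p = 0.0304 and 0.0287). Closest to Tcf4, which varied by 0.280, were Neil3 (0.091), a DNA glycosylase gene, Myl2 (0.115) and Bcl7a (0.118). Neil3 was lower in CD24+ cDCs by a log2 difference of -0.67 (adjusted p = 0.00711) and differed by -0.35 in labelled Zeb2-deficient cells (adjusted p = 0.998). Myl2 was read below the median gene of each group. All these genes were picked because their values over the same arrays resemble those of Id2 or Tcf4. Their group differences and calls follow in part from that choice and are no separate evidence.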

How the data were processed

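RNA of 11 sorted cell samples was amplified with an Ovation PicoSL kit and hybridised to whole-transcript arrays, per the labels' protocols. The deposited values are log2 expression per probe set, which the authors computed by RMA (per the submitters' processing notes); versions, filters and genome build are not given in the sources used here. Of 30177 probe sets, 21789 carried 1 gene symbol in the platform annotation, 1621 several and 6767 none, and the latter kinds were left out. Where several probe sets named a gene, the one of highest mean was kept, leaving 19938 genes. Groups were compared with limma 3.58.1 (R 4.3.3) in 1 fit over all 11 arrays with group as the only factor, two-sided, with Benjamini-Hochberg adjustment over all genes and a threshold of 0.05. No filter on low values was applied. The scripts were tested on simulated data that held no array sets. A simulated log2 difference of 0.5 passed for 9.5% of changed genes in CD24+ against control CD172a+ cDCs. The shares were 25.5% and 9% in labelled Zeb2-deficient cells against control CD172a+ and against CD24+ cDCs. A difference near that size that did not pass is therefore not shown to be absent. Precision is limited by how few arrays there are (8 residual degrees of freedom).

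The 7 genes, the lists of pathway genes and markers and the array sets were chosen with earlier results of these data known. Genes were named by rule: every member, up to 4 genes with the smallest p in each direction of a pathway list, a fixed set of fate factors, and the 3 genes closest to each member that passed. Fcer2a, Lyz2 and Clec12a are named outside this rule, after their values were seen, because the counts they belong to are 1. Runx2 of the fixed set carried no probe set of its own and was not analysed here. Replicate numbers were checked as a pairing: between the CD172a+ groups, deviations of arrays with the same number correlated over genes at 0.442 to 0.680 in 4 pairs, above the threshold of 0.1, and other-numbered arrays of the same set at 0.496 to 0.699. Arrays with the same number were thus no more alike than others of their set, and the numbers showed no pairing beyond the sets. Promoter sequences came from RefSeq. Plots were made in Python 3.11.15 (matplotlib 3.10.9).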

Additional observations from a re-analysis of the deposited data

Results flagged for a closer look

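Tcf3 in control CD172a+ replicate 4 read 6.48 while the other 3 arrays of the group read 7.08 to 7.11, so a single array lay far from the others of its group. Of 14 groups of 4 arrays examined over the 7 genes this was 1, and chance flags about 5% of such groups.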

How the results depend on the processing

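With 1 array left out at a time, the count of genes of the 7 that passed was 2 in CD24+ against control CD172a+ cDCs and 0 in both other comparisons, as over all arrays. In those runs 874 to 1220 of 19938 genes passed in the first comparison. In labelled Zeb2-deficient against control CD172a+ cDCs 7 to 11 passed, and against CD24+ cDCs 985 to 1533. The count of the 7 fell to 1 in the first comparison within the second array set (1753 of 19938 genes passed) and with quantile normalization repeated (1337 passed), beside 1278 without these settings. It rose to 1 in labelled Zeb2-deficient CD172a+ against CD24+ cDCs on blocking by array set, with the replicate block, quantile normalization repeated or array weights. With the replicate block this was Id2 (-0.57, adjusted p = 0.0192 in limma), although numbers do not pair these groups. Of 19938 genes 3641, 2049, 1402 and 2110 passed in the same order, beside 1429 without these settings. In labelled Zeb2-deficient against control CD172a+ cDCs the count of the 7 that passed was 0 under every alternative run. The replicate block left Id2 at 0.56 and Tcf4 at -0.27 there. Over all genes, the count in that comparison was 10, against 5 with only the 2 groups compared, 29 blocking by array set, 26 with the replicate block and 0 within the first array set (2260 at an unadjusted p below 0.05). The other counts moved past 1.5 times only blocking by array set, from 1278 to 3080 and from 1429 to 3641.

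Signs turned only for differences that did not pass. In CD24+ against control CD172a+ cDCs, Id1 turned to 0.01 with the replicate block, 0.03 with quantile normalization repeated or median centring and 0.05 with array weights. Id3 turned to 0.42 within the first set, 0.10 with the replicate block and 0.01 with either normalization, Id4 to 0.15 within the first set and Tcf3 to -0.01 with the replicate block. With 1 array left out, Id1 ranged from -0.04 to 0.05, Id3 from -0.19 to 0.13, Id4 from -0.13 to 0.01 and Tcf3 from -0.07 to 0.14. In labelled Zeb2-deficient against control CD172a+ cDCs Tcf12 turned to 0.20 within the second set, 0.02 with quantile normalization repeated and 0.0038 with array weights, and ranged from -0.12 to 0.12 with 1 array left out. Against CD24+ cDCs Id4 turned to -0.12 within the first set and Id3 to 0.20 within the second. The cause was not tested. Of the 3 genes closest to Id2 and to Tcf4, 1 each (Phxr4 and Neil3) stayed among the closest 3 after the array set means were removed. Id1, Id3 and Id4 lie near background, where signal limits what can be measured.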

Other observations

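Several factors of the circuit that holds Id2 and Tcf4 differed between the array sets with groups accounted for. Of 27 fate factors, 2 were higher and 13 lower in the second set, where 30.1% of all genes differed. Nfil3 was 1.18 higher, Cbfa2t3 differed by -1.14 and Bcl11a by -1.09, and Spib by -0.88, on the log2 scale. Of 20 E-protein partners and cofactors 1 was higher and 8 lower there.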
